A study of Drosophila melanogaster with 2 samples.

Results

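Of the 1696 luna-GFP peaks in the thresholded list, which keeps peaks by their irreproducible discovery rate (IDR, a measure of how far peak ranks repeat across replicates), 396 lay just upstream of a gene whose neighbour starts close by and runs the other way. The share was 23.3%, with a 95% Wilson interval of 21.4% to 25.4%. A peak was a member when its summit lay 1 to 500 bp upstream, by strand, of its nearest protein-coding transcription start site (TSS), and a protein-coding gene of the opposite strand had a TSS within 1000 bp of that TSS. The choice used position alone and no signal beyond the IDR threshold. For comparison there were 485 IDR peaks 1 to 500 bp upstream of a TSS without such a partner, called single-promoter peaks here. Chromatin came from whole mixed-sex embryos of Drosophila melanogaster, aged 0 to 24 h, of the strain luna-MiMIC-GFP, in which an inserted eGFP exon makes luna, a zinc finger gene of the KLF family, produce a GFP fusion. The fusion was recovered from sonicated chromatin of 200 to 800 bp fragments with an antibody against GFP, in 2 biological replicates of 1 group, so there is no treated or mutant group. The values pool every cell type and stage of that day, and they describe 1 tagged line. A control experiment named in the labels was not analysed here.

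Head-to-head genes start next to each other on opposite strands and are transcribed away from a shared interval, which acts as the promoter region of both. This arrangement is common in the compact fly genome, above all among genes that every cell uses. In Drosophila such intervals are known for the insulator protein BEAF-32, which binds clustered CGATA, for Dref, which binds TATCGATA, and for further core promoter motifs named Ohler6 and Ohler7. Promoters with a TATA box or with GAGAG repeats, the letters bound by the GAGA factor, are more typical of developmentally regulated genes. KLF factors bind GC-rich letters such as CACACCC or CACGCCC.

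The windows printed next show each of the 3 motifs whose share differed between head-to-head and single-promoter summits, in the 2 strongest divergent members on 2L, 3L, 3R and X whose printed stretch held it. They are the plus strand of dm6, read 5′ to 3′ from the RefSeq copy of the Release 6 genome. Each covers up to 100 bp on each side of the summit, trimmed to the stretch between both TSSs that holds no annotated exon. Capitals mark the motif on either strand. Matches were taken at any distance from a TSS, so a window labelled with a TATA box holds the letters TATAAA and not a TATA box placed for either gene. The first pair shows Ohler7 between Lon and PIG-F at chr3L:19612200-19612349 and between CG18661 and alien at chr2L:8997441-8997604. The second pair shows TATAAA between CHMP2B and Tcs5 at chr3L:5139415-5139615 and between Shc and Atat at chr3L:9426794-9426994. The last pair shows GAGAG between CG5611 and Mtl at chr3R:27636133-27636333 and between Rev1 and MED30 at chr3L:654153-654353.
Lon and PIG-F with Ohler7: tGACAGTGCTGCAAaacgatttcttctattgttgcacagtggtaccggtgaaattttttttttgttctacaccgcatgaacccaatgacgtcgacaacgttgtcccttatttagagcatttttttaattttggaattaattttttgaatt
CG18661 and alien with Ohler7: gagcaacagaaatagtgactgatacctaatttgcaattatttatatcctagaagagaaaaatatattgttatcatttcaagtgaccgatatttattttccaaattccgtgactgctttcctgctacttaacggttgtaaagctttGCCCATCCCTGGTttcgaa
CHMP2B and Tcs5 with a TATA box: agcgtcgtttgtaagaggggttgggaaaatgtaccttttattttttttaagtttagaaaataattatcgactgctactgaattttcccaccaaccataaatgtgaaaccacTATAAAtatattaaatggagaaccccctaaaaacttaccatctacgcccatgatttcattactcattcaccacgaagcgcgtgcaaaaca
Shc and Atat with a TATA box: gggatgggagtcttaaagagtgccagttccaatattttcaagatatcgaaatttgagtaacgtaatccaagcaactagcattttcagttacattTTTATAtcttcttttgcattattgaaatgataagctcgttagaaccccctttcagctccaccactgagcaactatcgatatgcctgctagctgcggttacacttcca
CG5611 and Mtl with GAGAG: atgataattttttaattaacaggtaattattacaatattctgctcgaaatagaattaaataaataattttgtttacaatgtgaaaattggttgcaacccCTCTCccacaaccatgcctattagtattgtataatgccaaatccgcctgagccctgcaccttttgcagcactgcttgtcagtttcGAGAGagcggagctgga
Rev1 and MED30 with GAGAG: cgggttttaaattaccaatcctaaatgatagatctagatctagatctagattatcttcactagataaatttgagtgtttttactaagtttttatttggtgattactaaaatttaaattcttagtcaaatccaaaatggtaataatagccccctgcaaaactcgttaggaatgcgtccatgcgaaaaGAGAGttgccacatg

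Lon encodes a mitochondrial protease and PIG-F a protein of GPI anchor synthesis. The signal deposited by the authors for the peak over the Lon window was 171 in the pooled list, with 88.5 in replicate 1 and 83.9 in replicate 2. CG18661 and alien, which encodes a subunit of the COP9 signalosome, shared a peak of 148 with replicate values of 83.9 and 61.1. The GAGAG windows belonged to a peak of 144 at CG5611 and Mtl, with 67.0 and 75.3 in replicates 1 and 2, and to a peak of 132 at Rev1 and MED30, with 48.6 and 80.5. Rev1 encodes a translesion DNA polymerase and MED30 a Mediator subunit. The TATAAA windows at CHMP2B and Shc carried the stronger peaks described further on. The signal is the authors' score per peak without a stated scale. In the members the pooled value was close to the sum of both replicate values, with a median ratio of 1.01 and quartiles of 0.988 and 1.04 over 395 members.

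Head-to-head pairs carried an upstream IDR peak more often than solitary genes. The annotation held 2423 divergent pairs with TSSs within 1000 bp, and 445 of them, 18.4% with an interval of 16.9% to 20%, had an IDR summit 1 to 500 bp upstream of either TSS. Among 8804 protein-coding genes with no opposite-strand partner at any TSS, 436 had one, which is 4.95% with an interval of 4.52% to 5.43%. Over all 11227 loci of both kinds the share was 7.85%. The odds ratio was 4.32, with a 95% interval of 3.75 to 4.97, and Fisher's exact test, two-sided, gave p = 1.75e-87. The 445 exceed the 391 different pairs of the members because a summit can lie upstream of a pair while another TSS is nearer to it. A pair offers more upstream sequence than 1 gene, so the plus-strand TSS of each pair was also set against solitary genes with 1 TSS, a comparison chosen after the data were seen. Of those TSSs, 362 of 2423 (14.9%) had an IDR summit, against 205 of 6726 (3.05%), with an odds ratio of 5.59. In close pairs these 500 bp still reach past the start of the partner, which this comparison does not remove. Only 334 of the 2423 pairs (13.8%) had an IDR summit strictly between both TSSs, a count also chosen after the data were seen. Against all 8804 solitary genes its odds ratio was 3.07. Part of the contrast was already there in the whole candidate list. In all, 1450 pairs (59.8%) and 2106 solitary genes (23.9%) had a pooled candidate of any strength upstream, with those that passed IDR included. Among those loci alone, also chosen after the data were seen, the odds ratio was 1.70 with p = 1.66e-11 by Fisher's exact test.

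The share was highest at intermediate distances between the start sites. Pairs with TSSs over 200 and up to 300 bp apart had an IDR summit in 133 of 503 cases, 26.4% with an interval of 22.8% to 30.5%. Closer pairs had one in 139 of 740, 18.8% (16.1% to 21.8%), and pairs over 300 and up to 400 bp apart in 71 of 367, 19.3% (15.6% to 23.7%). At over 400 and up to 600 bp the share was 12.4% (53 of 428), and at over 600 and up to 1000 bp it was 12.7% (49 of 385). The interval of the 200 to 300 bp class lay above those of the closest and both wide classes and overlapped slightly with that of the 300 to 400 bp class. Pooled candidates showed a flatter top, at 64.7%, 68.2% and 64.6% in the 3 narrow classes, and 51.2% and 44.7% in the 2 wide ones. In close pairs the 500 bp reach past the start site of the partner. Counting only summits strictly between the start sites, 334 of 2423 pairs had one (13.8%, interval 12.5% to 15.2%), with 53 (7.16%, 5.52% to 9.25%) at up to 200 bp, 117 (23.3%, 19.8% to 27.1%) at over 200 and up to 300 bp and 64 (17.4%, 13.9% to 21.7%) at over 300 and up to 400 bp. In the wide classes this count was 51 (11.9%) and 49 (12.7%), so the closest class was then the lowest. Close pairs also leave less sequence in which such a summit can fall, so the strict count cannot rank them against wide pairs. The strict count was chosen after the data were seen. These classes were not compared by a test.

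**Figure D1:**
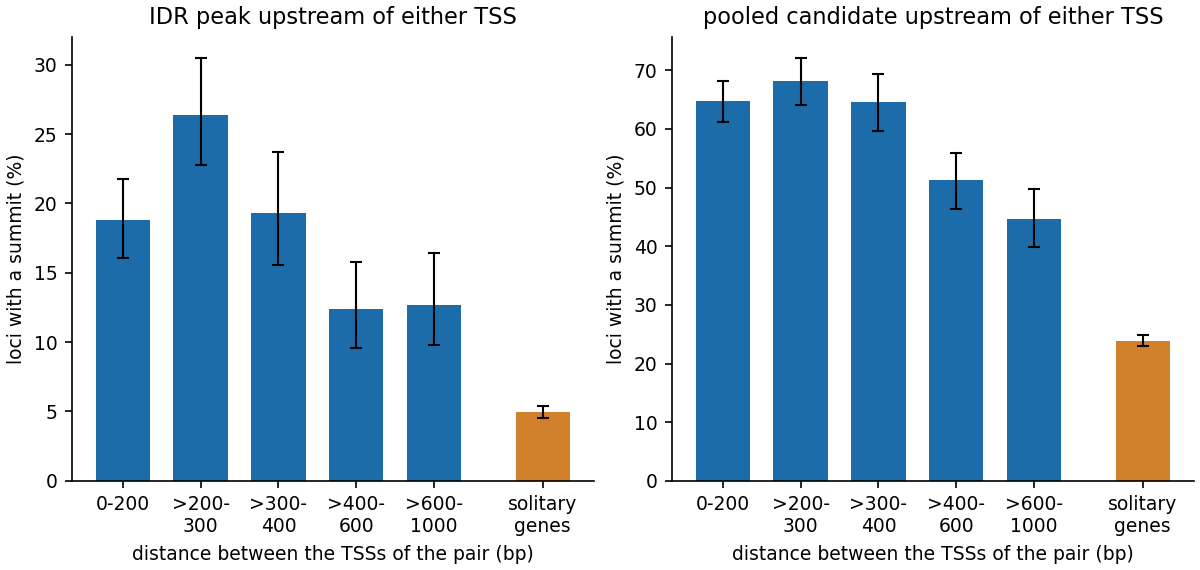
Share of loci with an IDR summit (left) or a pooled candidate summit (right) 1 to 500 bp upstream of a TSS, in percent on a linear axis from 0, for head-to-head pairs by the distance between their TSSs (blue) and for solitary genes (orange). Bars are shares and error bars Wilson 95% intervals; the IDR share stood at 26.4% for pairs over 200 and up to 300 bp apart and at 4.95% for solitary genes.

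Upstream of a head-to-head TSS, candidates also passed the IDR threshold more often. The pooled list held 21725 candidates, of which 7.81% passed. Of 1322 candidates placed by the members' rule 396 passed, 30% with an interval of 27.5% to 32.5%, and of 2650 candidates upstream of a TSS without a partner 485 passed, 18.3% (16.9% to 19.8%). The odds ratio was 1.91 (1.64 to 2.23), and Fisher's exact test (two-sided) gave p = 2.76e-16. Since the IDR list was exactly the 1696 strongest pooled candidates, this compares strong with weak candidates. Above the threshold the order was not the same. Signal in the members ran from 46.5 to 689 with a median of 66.6 and quartiles of 53.5 and 85.0, and the single-promoter peaks had a median of 66.7 with quartiles of 54.3 and 94.6. By rank in the IDR list 93, 114, 93 and 96 members fell in its 4 equal parts of 424 peaks, from strongest to weakest. The strongest 424 peaks held 23.5% of the members and 29.7% of the single-promoter peaks (144 of 485), an odds ratio of 0.727 (0.537 to 0.984) with p = 0.0396 by Fisher's exact test. That last call was lost under the other distance limits tried and with either replicate alone, with an odds ratio of 0.845 without replicate 1 and 0.846 without replicate 2, and with the strongest 848 peaks in place of 424, at 0.924.

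Of the 396 members 383 were divergent, and in all 383 the summit lay between both TSSs. In 136 members (34.3%) the peak interval, at most 376 bp wide, covered both TSSs, and 324 summits (81.8%) were within 500 bp upstream of both. The TSSs of a pair were 19 to 977 bp apart, with a median of 302 and quartiles of 236 and 481. Summits lay a median of 74.5 bp upstream of the nearest TSS, with quartiles of 39.8 and 114. Single-promoter summits lay a median of 136 bp upstream, with quartiles of 68 and 240. The rule fixes part of this difference, because a summit between paired TSSs cannot be far from both, so it was not tested. By distance, 130 members were within 50 bp of the TSS, 127 over 50 and up to 100, 96 over 100 and up to 150, 35 over 150 and up to 250 and 8 beyond.

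The position within the interval differed with its width. Of the 383 divergent members 198 had the summit within 25% of the interval's length from the nearest TSS. In pairs over 200 and up to 300 bp apart the median summit was 81.0 bp upstream of the nearest TSS and 48.5 bp from the midpoint (131 members). In pairs over 600 and up to 1000 bp apart it was 93.5 bp upstream and 302 bp from the midpoint (62 members). In these widest pairs 49 summits (79.0%) were within 25% of the interval's length from the nearest TSS, against 25 of 56 (44.6%) at up to 200 bp and 50 (38.2%) in the 200 to 300 bp class. Either end of the interval can be the nearest, so even placing along it would put as many summits within that part as outside it, which was the count in the 300 to 400 bp class (35 of 70). The median signal differed little between the distance classes, from 60.4 at over 400 and up to 600 bp to 69.6 at over 600 and up to 1000 bp.

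**Figure D2:**
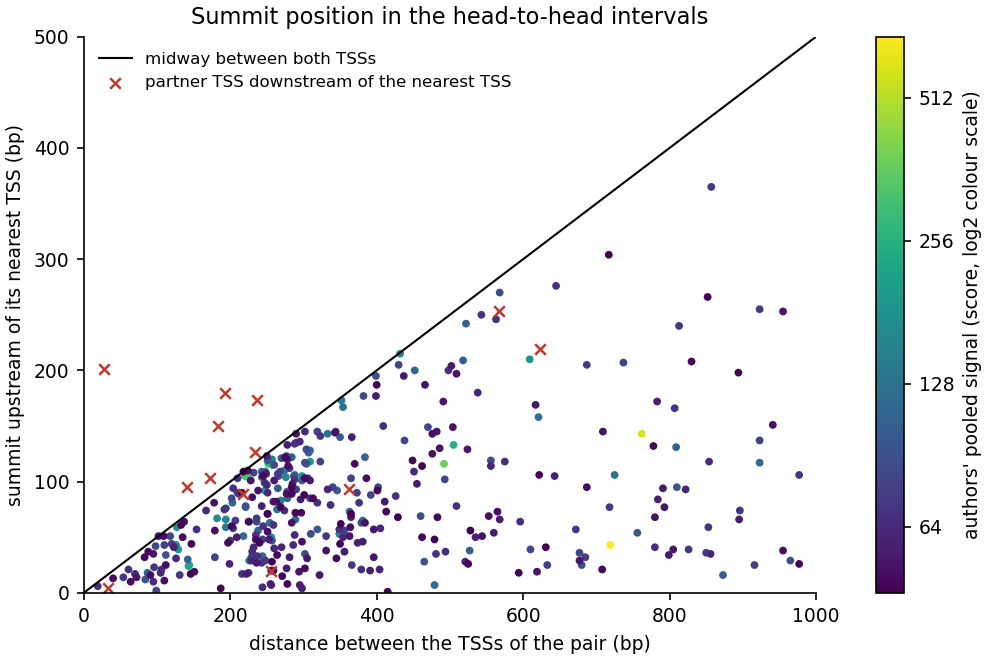
Distance of each member's summit upstream of its nearest TSS against the distance between the TSSs of the pair, both in bp on linear axes, with colour for the authors' pooled signal and crosses for the 13 members whose partner TSS lies downstream of the nearest TSS. Summits of wide pairs lie far under the black line that marks the midpoint, with a median of 93.5 bp upstream in pairs over 600 and up to 1000 bp apart.

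In the other 13 members the partner starts downstream of the nearest TSS, so the 5′ ends of both genes overlap. The strongest was at chr2R:9959769-9960000 with a pooled signal of 323, 150 bp upstream of Pdrg1, with 155 in replicate 1 and 165 in replicate 2. Pdrg1 is a prefoldin-related gene, and its partner Pal1 encodes an enzyme of peptide amidation. Next were Adck1 with CG4741 at 147 and CG7988 with CG7183 at 113. The weakest of the 13 was at CG3511 and Fcp1, the latter a phosphatase of the RNA polymerase II tail, with 50.8.

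In 5 pairs 2 IDR peaks lay between the genes, and in 4 of these pairs the peak intervals overlap, so that only at Ac78C and chb were they apart. Between Ac78C, an adenylyl cyclase gene, and chb, which encodes a microtubule plus-end protein, the pooled signals were 117 on the Ac78C side and 71.8 on the chb side. The replicate 1 values were 64.8 and 42.4, and those of replicate 2 were 52.7 and 31.7. Between Lon and PIG-F the side of PIG-F had 58.8, with 20.4 in replicate 1 and 11.2 in replicate 2, well under the 171 of the Lon side. PIG-L and psidin had 73.6 and 57.6. Between aph-1, a gamma-secretase subunit gene, and Snx21 both summits had aph-1 as the nearest gene, at 270 bp upstream with a signal of 89.0 and at 66 bp with 57.9. At Dg, the dystroglycan gene, and mRpL34 the pooled signals were 110 and 52.6, but both summits matched the same candidate of replicate 2, with 53.0, so that replicate did not separate them. In each of these pairs except Dg and mRpL34 both replicates had the higher value at the same summit as the pooled list.

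The strongest members were high in both replicates. The first of all IDR peaks, at chrX:2703754-2704041, was a member with a pooled signal of 689, with 349 in replicate 1 and 342 in replicate 2. It lay 43 bp upstream of Ugalt, the Golgi UDP-galactose transporter, and 676 bp from the start of eIF2Bbeta, a subunit of the exchange factor for the initiation factor eIF2. The interval of mRpL41, a mitochondrial ribosomal protein gene, and CG8079 at chr2R:15217601-15217910 held a peak of 586, with 298 and 288 in replicates 1 and 2. Both stood far above the rest of the members.

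A group between 301 and 378 followed. CenG1A, an Arf GTPase-activating protein gene, and mRpS23 shared a peak of 378 at chr2L:13835336-13835573, with 177 in replicate 1 and 202 in replicate 2. At chr3L:5139385-5139628, between CHMP2B, an ESCRT-III subunit gene, and Tcs5, a gene of tRNA threonylcarbamoylation, the pooled signal was 364, with 183 and 180. The summit of this TATAAA member lay 104 bp from CHMP2B and 120 bp from Tcs5, near the middle of the interval. CG7601 and CIA30, a gene for assembly of respiratory complex I, had 318 at chr3R:29736738-29736970, with 183 in replicate 1 and 134 in replicate 2. Shc, an adaptor of receptor tyrosine kinases, and Atat, an alpha-tubulin acetyltransferase gene, had 315 at chr3L:9426772-9426994, with 152 and 165. Art3, an arginine methyltransferase gene, and mRpS10 had 301 at chr3R:15229413-15229616, with 153 and 145. In this group the replicates differed by little except at CG7601. Mitochondrial ribosomal protein genes stood at 3 of the 8 strongest members, while over all pairs with such a gene 20.3% had an IDR summit, beside 18.4% of all pairs.

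Signals from 163 to 257 made up the rest of the strongest 20. CG5098 and CG5757 had 257, with 141 in replicate 1 and 117 in replicate 2. RpS27, a ribosomal protein gene, and Nup37 of the nuclear pore had 235, with 132 and 100. Mnat9 and CG1792 had 219, with 93.1 and 125. These 3 members lay in intervals of 505, 144 and 143 bp. Bdp1, a subunit gene of the RNA polymerase III factor TFIIIB, and CG6565 shared 203, with 86.9 and 115. Coq4, of ubiquinone synthesis, and CG32176 shared 197, with 102 and 92.6. RpL32 and CG7943 shared 196, with 93.0 and 107. RpL32 is a ribosomal protein gene widely used as a constant reference. The bves and Stt3A interval, the latter a catalytic subunit of oligosaccharyltransferase, had 191, with 75 in replicate 1 and 117 in replicate 2. At l(2)gd1, an endosomal regulator of Notch, and Reps the signal was 183, with 109 and 73.6. Nelf-E, a subunit of the negative elongation factor that pauses RNA polymerase II, and RpL14 also had 183, with 87.5 and 95.3. The pair of Lon and PIG-F came next, before RpL41 with the sodium channel gene NaCP60E at 170, where replicate 1 had 68.3 and replicate 2 had 95.6. Vps33B, of vesicle tethering, and the furin protease gene Fur1 closed the list at 163, with 114 in replicate 1 and 50.4 in replicate 2. Each of the 20 was among the 1696 strongest candidates of both replicates, 9 of them with the higher signal in replicate 2. The lowest rank was 127 in replicate 1, at RpL41, and 393 in replicate 2, at Vps33B. Members made up 6 of the 20 strongest IDR peaks and 23 of the 100 strongest.

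**Figure D3:**
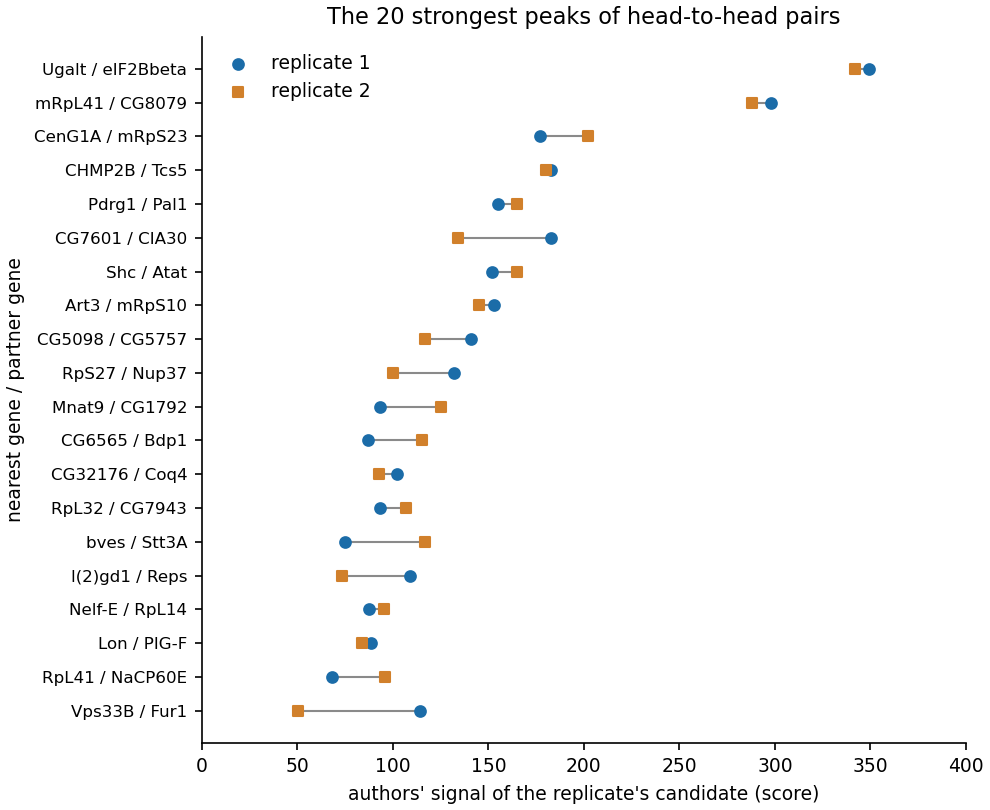
The authors' signal (a score on a linear axis from 0) of the candidate nearest to each of the 20 strongest members, in replicate 1 (blue circles) and replicate 2 (orange squares), ordered by pooled signal and named by the nearest and the partner gene. Both replicates stay close at Ugalt (349 and 342) and lie apart at Vps33B (114 and 50.4).

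Of the 18 gene lists, cytoplasmic ribosomal proteins had the highest share of pairs with a peak. Of 52 pairs with such a gene 32 (61.5%) had an upstream IDR summit, beside 18.4% of all pairs. Solitary ribosomal protein genes were close to that level, at 16 of 33 (48.5%), so the high share was not limited to pairs. The 28 members with such a gene had a median signal of 94.5, from 47.4 to 235, and 17 of them were among the 424 strongest IDR peaks. In 24 of the 28 the ribosomal protein gene was the one with the nearer TSS, and the summits lay a median of 37.5 bp upstream, beside 74.5 bp for all members. RpS27, RpL32, RpL14 and RpL41, described above, were the strongest. At RpL18, paired with Neos, the pooled signal was 57.7 and replicate 1 had 33.4, and no candidate of replicate 2 lay within 250 bp, the only such gap among the members.

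The other groups were nearer to the background or rested on few pairs. Mitochondrial ribosomal protein genes had an IDR summit in 12 of 59 pairs (20.3%), and genes of oxidative phosphorylation in 10 of 44 (22.7%). For the latter the strongest member was ND-MWFE, a complex I subunit gene, with TppII, at a signal of 125 with 59.9 in replicate 1 and 61.4 in replicate 2. Subunits of the proteasome stood at 6 of 26 (23.1%), translation initiation factors at 6 of 21 (28.6%), aminoacyl-tRNA synthetases at 5 of 22 (22.7%), and Mediator and TFIID subunits at 7 of 29 (24.1%). These shares ran from 20.3% to 28.6%, beside 18.4% of all pairs. Solitary genes of the same lists had lower shares, unlike those of cytoplasmic ribosomal proteins. In the order above, 0 of 16, 1 of 43, 0 of 22, 2 of 23, 0 of 9 and 1 of 8 had an IDR summit, beside 4.95% of all solitary genes. The strongest proteasome member was Rpn6 with ave at 56.8, with 26.5 and 31.2. The strongest synthetase member was IleRS with Hem, a subunit gene of the WAVE complex, at 83.9, with 42.3 and 38.9.

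Vesicle transport genes had 12 of 56 pairs (21.4%), chaperones and mitochondrial import 5 of 19 (26.3%), nuclear pore genes 4 of 18 (22.2%), spliceosome genes 4 of 28 (14.3%) and RNA polymerase subunits 2 of 18 (11.1%). Hsp83, the fly Hsp90 gene, with CG14965 was the strongest chaperone member at 131, with 62.0 in replicate 1 and 68.5 in replicate 2. At Prp31 and the mismatch repair gene Msh6 the signal was 62.3, with 28.7 and 35.7. The single polymerase member was brat, a translational repressor gene, with Polr1D, at 61.5. There replicate 1 had 12.7 and replicate 2 had 48.9, so it rested mostly on replicate 2.

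Higher shares came from small groups. Kinetochore, condensin and cohesin genes had 7 of 15 pairs (46.7%), and vacuolar ATPase genes 6 of 14 (42.9%). The condensin gene SMC2 with the repair gene Ercc1 had 72.3, with 33.9 and 37.2 in replicates 1 and 2. Vha55 with the sorting nexin gene Snx3 had 82.4, with 38.0 and 47.6. Genes of insulator factors had 3 of 6 pairs, among them the gene of Dref itself, which starts 84 bp from RpL13. That peak had a signal of 93.9, with 27.7 in replicate 1 and 68.5 in replicate 2, and its summit lay 12 bp upstream of RpL13. Cp190, an insulator cofactor gene, with CG4338 had 76.5, with 32.9 and 40.4. The listed DNA replication genes had 0 of 13 pairs, but that list is incomplete. The replication gene dpa, paired with didum, lay outside it and was a member, with a signal above the members' median. The listed cuticle protein genes had 0 of 7 pairs and the listed chemoreceptor genes 2 of 23 (8.70%). Both chemoreceptor members, at Ir60e with CG13585 (54.8) and at Gr63a with Lamtor4 (48.6), had the partner as the nearer gene. No list was tested, since the lists were drawn up with results of these data known. They go by symbol and are incomplete, so shares and strongest members hold for the listed genes alone. Besides dpa, members outside them were the cohesin gene pds5 with Mppe (97.5), the Mediator gene skd with Pdss2 (70.8) and the ATP synthase gene blw with CG42260 (97.1). In all, 102 members (25.8%) had a gene of some list, and 193 (48.7%) had a gene known only by a CG number, against 54.3% of all pairs.

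Replicates ranked the strong members alike and the weak ones loosely. A candidate within 250 bp of the summit was found for all 396 members in replicate 1 and for 395 in replicate 2. Signal ran from 11.0 to 349 with a median of 30.6 in replicate 1, and from 8.08 to 342 with a median of 35.5 in replicate 2. Across 395 members the signals had a Spearman rank correlation of 0.534 and, on the log2 scale, a Pearson correlation of 0.684. Members were selected by their pooled signal, which is close to the sum of both values, so these coefficients describe a selected set and carry no test. The log2 ratio of replicate 2 to replicate 1 had a median of 0.18 and an SD of 0.56, and 254 of 395 members were higher in replicate 2. Of the members 320 (80.8%) were among the 1696 strongest candidates of replicate 1, 309 (78.0%) among those of replicate 2, 250 (63.1%) among both and 17 among neither. Single-promoter peaks were among both in 314 of 485 cases (64.7%). Summits moved by a median of 13 bp in replicate 1 and 8 bp in replicate 2 from the pooled summit.

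**Figure D4:**
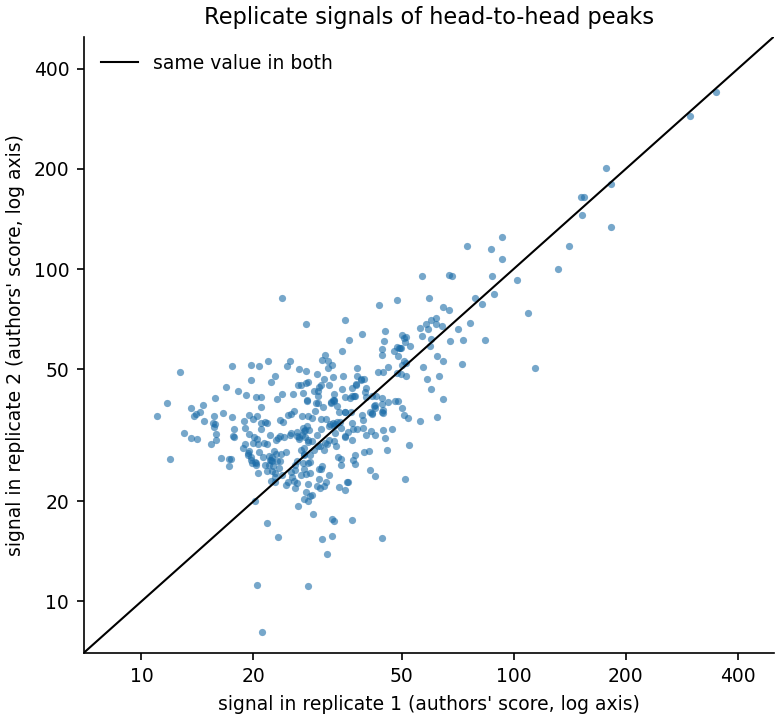
The authors' signal in replicate 1 against replicate 2 for the 395 members with a candidate in both, on log axes, with a line at the same value. Points gather along the line above a signal of about 50 and spread below it, and 254 of the 395 lie above the line.

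The widest disagreements were all at weak members. At mnb, the minibrain kinase gene, with CG6788 the candidate had 11.0 in replicate 1 (rank 10762) and 36.0 in replicate 2 (rank 855). For puml and TTLL12 the values were 11.7 (rank 8923) and 39.6 (rank 693), and for CG12974 and pzg 11.9 (rank 8533) and 26.9 (rank 1721). In the other direction stood the PIG-F side of Lon, with ranks 1957 and 13879, and CG5554 with the SNARE gene Snap29, with 28.0 (rank 1002) and 11.1 (rank 14310). CG6805 and NiPp1 had 21.1 (rank 1825) and 8.08 (rank 27567), the weakest value of any member in either replicate. Their pooled signals ran from 49.5 to 58.8, all under the members' median of 66.6.

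Windows of 100 bp on each side of the summit were searched on both strands for 24 motifs, and 3 of the 24 (12.5%) differed between members and single-promoter peaks at an adjusted p under 0.05. Ohler7 was in 75 members (18.9%) and 55 single-promoter windows (11.3%), an odds ratio of 1.83 (1.25 to 2.66) with an adjusted p of 0.0259. TATAAA, the letters of the TATA box, was in 137 (34.6%) and 124 (25.6%), an odds ratio of 1.54 (1.15 to 2.06) with an adjusted p of 0.0306. Its distance to a TSS was not part of the search, so these counts are not of placed TATA boxes. GAGAG was the rarer one in members, in 63 (15.9%) against 137 (28.2%), an odds ratio of 0.481 (0.344 to 0.671) with an adjusted p of 2.92e-04. All are two-sided Fisher's exact tests with Benjamini-Hochberg adjustment over the 24 motifs. The motifs were chosen with earlier results of these data known, and the adjustment does not cover that choice, here or at the midpoints below. Over all 1696 IDR windows the shares were 9.43%, 28.3% and 24.4%. The windows held the nearest TSS in 257 members (64.9%) and 184 single-promoter peaks (37.9%), and a window can also hold the TSS of the partner. A limit of summits up to 150 bp from the TSS was chosen after the data were seen. There Ohler7 had an odds ratio of 1.40 and an adjusted p of 0.336 by Fisher's exact test, while TATAAA and GAGAG still passed. The 357 members whose window does not reach the TSS of the partner were also taken alone, again chosen after the data were seen. By Fisher's exact test Ohler7 then missed the threshold (odds ratio 1.71, adjusted p = 0.0542), while TATAAA (1.65, adjusted p = 0.0128) and GAGAG (0.453, adjusted p = 1.51e-04) passed. With 50 bp on each side or with windows of middling GC content 0 of the 24 passed. Middling GC content left 219 member and 254 single-promoter windows, with odds ratios of 1.76 for Ohler7, 1.78 for TATAAA and 0.594 for GAGAG. With 50 bp on each side these were 1.77, 1.07 and 0.615. Ohler7 also missed the threshold with an upstream limit of 250 bp (odds ratio 1.61) or a pair limit of 500 bp (1.58), and TATAAA with pair limits of 500 bp (1.38) and 2000 bp (1.2), with genes of every biotype (1.40) and with the strongest 848 peaks (1.53).

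Other motifs known from housekeeping promoters had higher shares in members and did not pass the adjustment as reported, but some passed under other settings. The Dref element TATCGATA was in 57 members (14.4%) and 42 single-promoter peaks (8.66%), with an adjusted p of 0.0587 by Fisher's exact test. At least 1 CGATA was in 198 (50%) and 203 (41.9%), with an adjusted p of 0.0693. A pair of CGATA that do not overlap, the arrangement bound by BEAF-32, was in 96 (24.2%) and 96 (19.8%), with an adjusted p of 0.239. Both classes thus held clustered CGATA often, beside 15.2% of all IDR windows. Ohler6 was in 8 members and 1 single-promoter peak, with an adjusted p of 0.0634 by Fisher's exact test. The M1BP motif GGTCACACT was in 14 and 9. At least 1 of CGATA, M1BP, Ohler6 and Ohler7 was in 237 members (59.8%) and 224 single-promoter peaks (46.2%). TATCGATA contains CGATA, and 35 windows held both a CGATA pair and a Dref element, which is 36.5% of the CGATA pair windows and 61.4% of the Dref windows. Over the 14 alternatives in which summit windows were compared, the Dref element passed in 6, CGATA in 6, Ohler6 in 4, the CGATA pair in 3 and the M1BP motif in 1, each time with the higher share in members. The Dref element passed with an upstream limit of 1000 bp, a pair limit of 500 bp, either replicate alone, divergent partners alone and 150 bp on each side. Ohler7 and TATAAA each passed in 8 of the 14 and GAGAG in 12. The KLF core, CACACCC or CACGCCC, was in 5 members (1.26%), 16 single-promoter peaks (3.30%) and 2.42% of all IDR windows, with an adjusted p of 0.160 between the first and second by Fisher's exact test. It passed in 2 of the 14 alternatives, with replicate 1 alone and with 150 bp on each side, with the lower share in members.

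**Figure D5:**
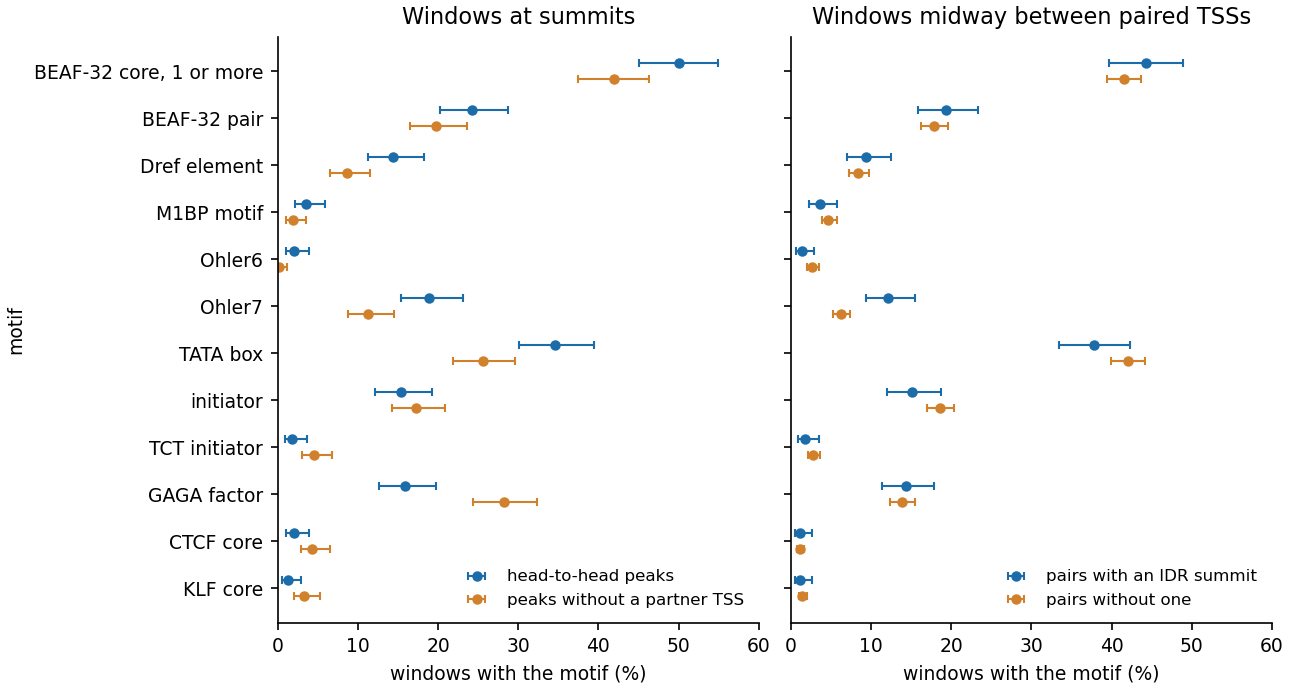
Share of windows, in percent on a linear axis, that hold each of 12 of the 24 motifs at summits (left, members in blue and single-promoter peaks in orange) and midway between paired TSSs (right, pairs with an IDR summit in blue and pairs without in orange). Points are shares and bars Wilson 95% intervals; Ohler7 is more frequent in the blue class in both panels, at 18.9% against 11.3% and at 12.1% against 6.27%.

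In member windows with at least 1 CGATA the nearest one was a median of 35.5 bp from the summit (198 windows). In windows with a CGATA pair it was 24.0 bp, and within 25 bp in 50 of 96, but such a window holds more than 1 copy and the nearest is measured, so that value cannot be set beside those of single motifs. The nearest Ohler7 match was a median of 46.0 bp away (75 windows), TATAAA 53.5 bp (137 windows) and GAGAG 52.0 bp (63 windows). Members with a CGATA pair had their summit a median of 54.5 bp upstream of the TSS, against 84.5 bp without, and a median signal of 64.6 against 68.2. Members with Ohler7 had a median signal of 71.5 against 65.0 without. These are descriptions of the members and were not tested.

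A window midway between the start sites is placed in the same way whether or not a pair has a peak, and 1 of the 24 motifs (4.17%) differed there. Ohler7 was in 54 of 445 pairs with an IDR summit (12.1%, interval 9.42% to 15.5%) and in 124 of 1978 without (6.27%, 5.28% to 7.42%). The odds ratio was 2.06 (1.47 to 2.89) with an adjusted p of 0.00121 by Fisher's exact test. Of the 445 pairs 334 had a summit strictly between the start sites, and in the others it lay at or past a start site. CGATA pairs were in 19.3% and 17.8%, Dref elements in 9.44% and 8.44%, TATAAA in 37.8% and 42.0% and GAGAG in 14.4% and 13.9%, and none of these passed. When pairs without an IDR summit were limited to those with a pooled candidate, the odds ratio of Ohler7 was 1.46 with an adjusted p of 0.295, and 0 of the 24 passed, as with windows of 50 bp on each side.

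At the edges of the rule, the members farthest upstream were CG10931 with sub at 365 bp (signal 73.3) and CG31021 with CG2246 at 304 bp (47.2), and the members nearest to the TSS were COX8 with VhaM9.7-b at 1 bp (46.5) and CG8176 with mRpL47 at 2 bp (80.2). Just outside were RpLP0 with CG7130 and eEF5 with ppk29, whose summits lay on the TSS, at 0 bp, with signals of 124 and 51.2. The widest pairs inside, CG30015 with nclb and SMC1 with Hsp68, spanned 977 bp, with signals of 70.0 and 49.5. The nearest outside spanned 1015 bp at Eno and Rrp40 (58.5) and 1027 bp at CG9776 and CG14645 (66.4). Signals on both sides of each limit were of the same order.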

How the data were processed

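Peaks of 2 biological replicates of 1 group were analysed in dm6. The authors deposited peak lists, in which the signal per peak is a score without a stated scale and the summit is an offset from the start. Per the deposited README texts, candidates were derived from alignments and a further file, the pooled list from both replicates (21725 candidates, and 30000 per replicate), and the IDR list from these. Which aligner and caller were used, and at which IDR level peaks were kept, is not given in the sources used here. Depth is unknown. The signal is the authors' and was used only to describe and rank peaks within a list.

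TSSs of 13945 protein-coding genes came from Ensembl release 115 (BDGP6.54). Coordinates are 1-based. Pairs are the nearest divergent TSSs of opposite-strand genes up to 1000 bp apart, counted once. Each member's replicate value is that of the candidate with the nearest summit within 250 bp. Ohler6 and Ohler7 were searched as degenerate consensus letters and other motifs as exact letters on both strands, with presence per window counted once. Besides the motifs spelled out in the results, these were the TCT initiator (CTCTTTC), the initiator (TCAGTT or TCAGTC), the CTCF core (AGNNGGCGC), an Sp-type site (GGGCGG), the ewg site (GCGCATGC), the E-box (CACGTG or, counted separately, CAGCTG), the Zelda site (CAGGTAG), the ETS site (CCGGAA), the AP-1 site (TGACTCA or TGAGTCA), the CRE (TGACGTCA), the Hox core (TAATTA), the Pho core (GCCATTT), 4 repeats of CA and 8 A in a row, and none of these passed as reported (under alternatives, the TCT initiator and the CA repeat passed in 2 each and CAGCTG and the Hox core in 1 each). Classes were compared by Fisher's exact test (scipy 1.17.1), with Benjamini-Hochberg adjustment over the 24 motifs at a threshold of 0.05, and odds ratios have Woolf 95% intervals. Code was tested on simulated data. Peaks and loci come from 1 pooled list and are not replicates, so p-values and Wilson intervals cover counting over peaks, not the spread between embryos.

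The members, the 18 gene lists (by symbol and incomplete) and the motifs were chosen with earlier results of these data known. The members at dpa, pds5, skd and blw, outside the lists, were named after their values were seen. Named are the 20 strongest members, the strongest member of each list that has one, the 2 strongest divergent members whose printable window holds each motif that passed, those at each limit, the 3 with the largest rank differences between replicates each way, pairs with 2 members, and a few named after their values were seen: the 13 members with overlapping 5′ ends, the member without a replicate 2 candidate, and further gene list members.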

Additional observations from a re-analysis of the deposited data

How the results depend on the processing

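Over those of the 19 alternatives that apply, 5 of them chosen after seeing the data, the excess of IDR peaks at pairs and the IDR share of candidates kept their direction and passed, with odds ratios of 1.70 to 5.59 and 1.59 to 2.32. The lower share of members among the strongest 424 peaks stopped passing with an upstream limit of 250 bp (0.775) or 1000 bp (0.745), a pair limit of 500 bp (0.833) or 2000 bp (0.799), the strongest 848 peaks (0.924), and either replicate alone (0.845 to 0.846). The strongest 848 IDR peaks alone held 207 members, by construction. Motifs that passed at summits numbered 7 with an upstream limit of 1000 bp, 7 with a pair limit of 500 bp, 7 with divergent partners alone, 8 with 150 bp on each side, 0 with 50 bp on each side, 0 with middling GC content and 4 to 8 with either replicate alone. At midpoints they numbered 0 with 50 bp on each side, 2 with 150 bp and 0 among pairs with a pooled candidate. GAGAG failed only with 50 bp (odds ratio 0.615) and middling GC content (0.594). The cause of these changes was not tested. No paired analysis was possible because both replicates belong to 1 group. Depth is unknown, so no limit of detection can be given.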

Other observations

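The share of head-to-head pairs with an IDR peak was lower on the X chromosome than on each large autosome arm. An upstream IDR summit was found at 45 of 382 X-linked pairs, 11.8% with an interval of 8.92% to 15.4%, and at 17.5% of pairs on 2L, 17.1% on 2R, 21.9% on 3L and 21.8% on 3R. Solitary genes did not show this order, with 5.14% on X (72 of 1402) and 4.22% to 5.58% on the 4 large autosome arms. On chromosome 4 there were 0 of 11 pairs and 4 of 58 solitary genes. Of the 396 members, 39 lay on X and 117 on 3R. The X interval lay below those of 3L (18.4% to 25.9%) and 3R (18.7% to 25.3%) and overlapped those of 2L and 2R. The arms were compared after their values were seen and without a test.

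In 7 members each gene of the pair belonged to a list of its own. Besides RpS27 with Nup37, RpL13 with Dref and Vha55 with Snx3, these were RpL28 with the initiation factor gene eIF1 (signal 136, with 64.4 in replicate 1 and 67.4 in replicate 2), SMC1 of cohesin with the heat shock gene Hsp68 (49.5, with 20 and 30), MED7 of Mediator with Cap-H2 of condensin II (48.0, with 19.0 and 29.7), and COX8 of cytochrome c oxidase with VhaM9.7-b of the vacuolar ATPase (46.5, with 19.7 and 26.6). The first of these 4 was well above the members' median of 66.6, and the other 3 were near the IDR limit.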
